A study of Homo sapiens with 2 samples.

Results

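The genes described here are 41 genes of the hypoxia response and of glycolysis, chosen by name among the 63677 rows of a gene count table. All 41 were matched by Ensembl identifier. They fall into 6 subunits and regulators of the hypoxia-inducible factor (HIF), 11 HIF-specific targets, 3 genes that set the flow of glucose carbon (PDK1, PFKFB3 and PFKFB4), 4 glucose and lactate transporters, and 17 glycolysis enzymes. RNA was sequenced from HGC-27 cells, a human gastric adenocarcinoma line, collected 48 hours after transfection with the plasmid pcDNA3.1-lncPSCA, which carries the long non-coding RNA lncPSCA, or with the vector pcDNA3.1 alone (control). INTERFERin was the transfection reagent in both groups, and medium, serum and incubation were the same. Each group had 1 library, so nothing was tested between groups, no p-value is given, and every difference is between 2 libraries.

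The lncPSCA library held 23016646 counts and the control library 21552098. Levels are counts-per-million values (CPM) after scaling of library size, and each fold is given with a 95% counting interval that covers counting error only. A gene is called measured at a mean of at least 1 CPM, which 15440 genes reached. It is called higher or lower when its log2 ratio between lncPSCA and control reached 1 in size and the counting interval lay wholly beyond 1.5-fold. By this rule 3.02% of measured genes were higher and 0.596% were lower. PSCA had 28699 reads in the lncPSCA library and 22 in the control library, and the interferon-induced gene ISG15 had 37960 and 1077. Whether RNA from the plasmid was counted on the PSCA row cannot be told from these counts, so they do not show a gain of the cells' own PSCA RNA. Markers of the labelled tissue were low. Of 9 epithelial markers 5 were measured and none met the rule, with summed levels of 13.3 CPM in lncPSCA and 13.6 CPM in control. The most abundant were MUC1 (165 and 105 reads, 7.02 and 4.98 CPM) and KRT8 (58 and 66 reads, 2.47 and 3.13 CPM). KRT7 had 17 and 39 reads (0.391-fold, 0.208 to 0.708), short of the rule, EPCAM had 7 reads in each library, and KRT18 had 0 and 4; these 3 were picked after their values were seen. No gastric lineage marker was measured, with 9 and 11 reads summed over the 11 found, of which ATP4A had 4 in each library and MUC5AC 3 and 4. Of markers of other cell types, all 6 fibroblast-type ones were measured (3274 and 2958 CPM summed). Of these, only PDGFRB was higher (5.83 and 2.80 CPM, 2.08-fold, 1.53 to 2.88), or 16.7% of the list. Most of the sum was collagen, with COL3A1 at 1947 and 1557 CPM. Of 5 erythroid markers the alpha-globin copies HBA2 (1209 and 1194 reads, 51.4 and 56.6 CPM) and HBA1 (350 and 407 reads, 14.9 and 19.3 CPM) were measured, a near-identical pair whose split is uncertain, while HBB was at 0 reads in both libraries. Of 6 immune markers 3 were measured, among them CD68 (58 and 34 reads) and CD14 (23 and 29 reads). No endothelial marker was measured: VWF had 13 and 5 reads, TEK 0 and 2. None of the erythroid or immune markers met the rule. Any part of these features in the results below was not tested.

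HIF is a transcription factor made of an oxygen-regulated alpha subunit and the stable partner ARNT. In the presence of oxygen the EGLN prolyl hydroxylases mark the alpha subunit for destruction through VHL, so that its protein, rather than its mRNA, carries most of the oxygen signal. In low oxygen HIF accumulates, binds short elements with the core ACGTG or GCGTG, and raises genes for pH control, vessel growth, mitochondrial turnover, collagen maturation and glucose breakdown. Many glycolysis enzymes are HIF targets too, but they are also abundant housekeeping genes, whereas genes such as CA9 are barely transcribed without HIF.

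The HIF-binding core was searched in the 250 bases before the start site of the members, because HIF targets are known to carry it near their genes. The sequences came from the RefSeq promoter table (build GRCh38.p14, a newer build than the hg19 of the counts), which held 64 windows for 35 of the 41 members. The letters ACGTG and GCGTG were searched on both strands, and a palindromic CACGTG counts on each strand. Of 35116 windows in the table, 43.2% held at least 1 match. A gene can have several windows, 7 each for HK1 and PFKM, so matches were also counted by gene: 47.4% of the 27305 genes in the table held one in at least 1 window. By gene, 7 of 8 HIF-specific targets did, the exception being P4HA2, and 14 of 17 glycolysis enzymes, the exceptions being PGAM1, PKM and LDHB. By window these were 8 of 9 and 19 of 37, with the 2 windows of KDM3A overlapping. A match describes the letters and is not evidence of binding. The 4 upstream windows below are shown because they belong to the 2 members that were higher and to 2 hypoxia-induced members, EGLN3 and ADM, whose ratios were below 0. They read 5′ to 3′ along the gene, and capitals mark the core on either strand. CA9 lies on the plus strand (chr9:35673678-35673927), PFKFB4 on the minus strand (chr3:48556804-48557053), EGLN3 on the minus strand (chr14:33951075-33951324) and ADM on the plus strand (chr11:10304823-10305072).
CA9: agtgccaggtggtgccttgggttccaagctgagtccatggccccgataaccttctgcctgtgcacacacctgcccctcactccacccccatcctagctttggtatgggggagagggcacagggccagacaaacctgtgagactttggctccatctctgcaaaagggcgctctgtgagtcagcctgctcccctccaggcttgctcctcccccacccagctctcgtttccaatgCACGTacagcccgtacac
PFKFB4: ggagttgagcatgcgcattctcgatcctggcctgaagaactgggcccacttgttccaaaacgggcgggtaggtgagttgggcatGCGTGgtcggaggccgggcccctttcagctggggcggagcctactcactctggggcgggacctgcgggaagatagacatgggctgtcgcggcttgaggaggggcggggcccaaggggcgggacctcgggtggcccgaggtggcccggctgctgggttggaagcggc
EGLN3: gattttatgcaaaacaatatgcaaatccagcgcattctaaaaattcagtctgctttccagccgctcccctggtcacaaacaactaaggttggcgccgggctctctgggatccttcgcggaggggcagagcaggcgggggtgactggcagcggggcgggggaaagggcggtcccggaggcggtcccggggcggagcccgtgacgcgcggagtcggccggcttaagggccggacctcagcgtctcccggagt
ADM: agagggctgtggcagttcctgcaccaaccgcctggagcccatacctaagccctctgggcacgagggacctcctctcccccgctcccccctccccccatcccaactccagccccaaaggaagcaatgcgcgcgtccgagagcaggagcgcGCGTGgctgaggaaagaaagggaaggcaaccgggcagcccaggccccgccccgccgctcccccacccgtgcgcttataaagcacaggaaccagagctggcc
CA9 held 1 ACGTG, read on the opposite strand, that ended 14 bases before the start site. PFKFB4 and ADM each held 1 GCGTG on the gene's strand, ending 162 and 97 bases before the start, and EGLN3 held neither core in this window. Members on either side of a ratio of 0 thus held a core in this window.

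Of the 40 measured members, 2 were higher in the lncPSCA library, CA9 and PFKFB4, and none was lower. That is 5.00% of the members beside 3.02% of all measured genes, a share near the background that is not read as a result about the members. Under a looser rule, 1.5-fold with an interval beyond 1, 5 of 40 members were higher (12.5%, beside 10.5% of measured genes) and none was lower (beside 5.41%). These 5 were CA9, PFKFB4, VEGFA, PDK1 and HIF1A. The median log2 ratio of the measured members was 0.03, and that of all measured genes was -0.02. The member left out was BNIP3, an inducer of mitophagy, with 13 and 6 reads (0.553 and 0.284 CPM), too few to compare.

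**Figure D1:**
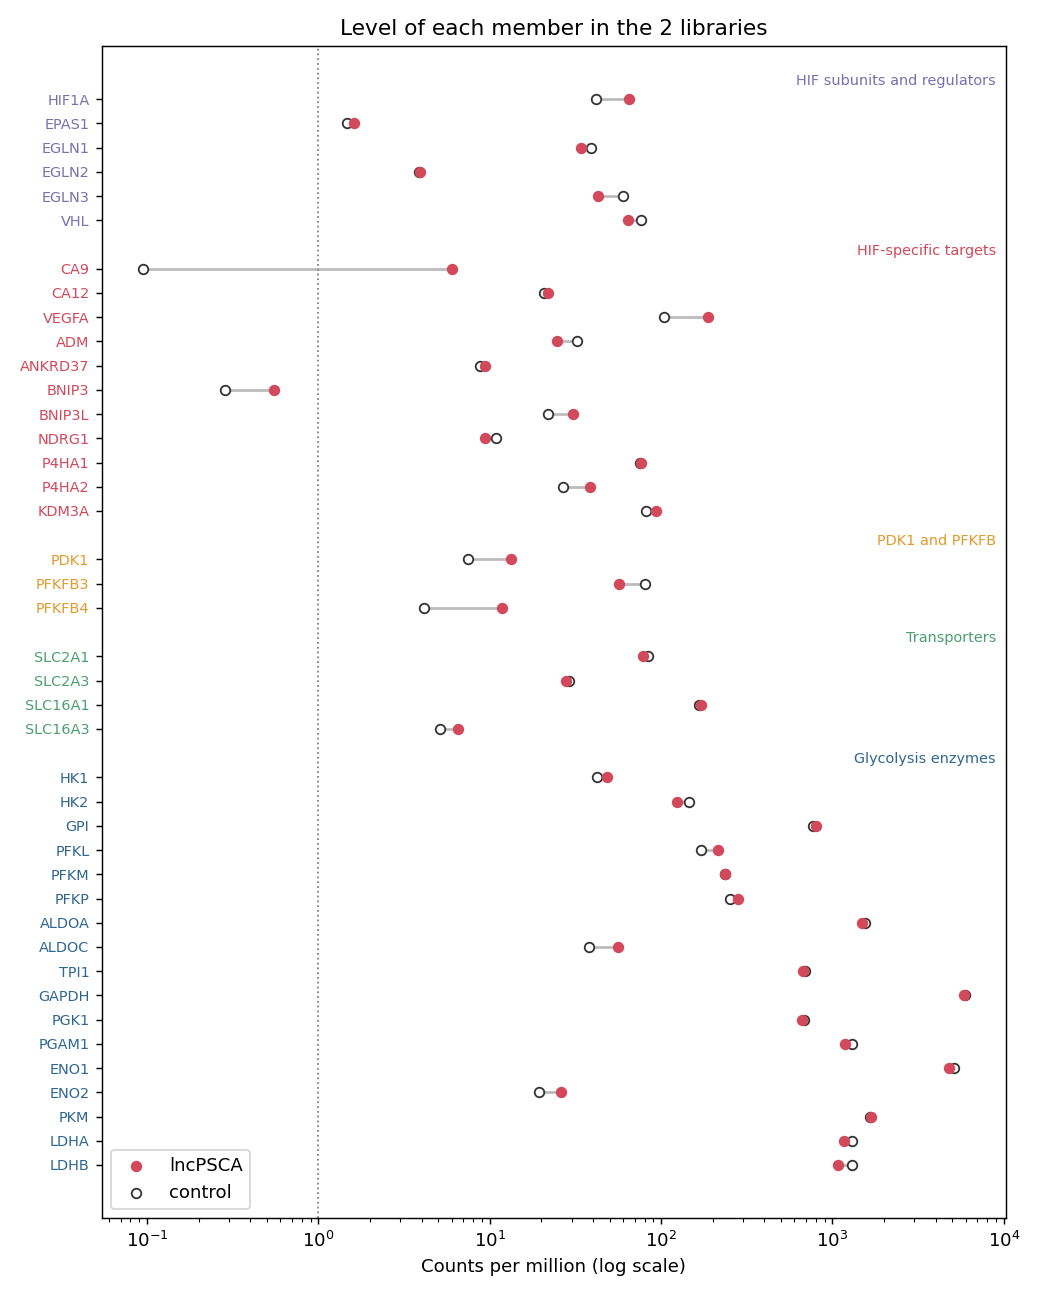
Level of each of the 41 members in CPM on a log axis, lncPSCA as filled points and control as open points, grouped by role; the dotted line is 1 CPM. CA9 stands apart with 5.997 CPM in lncPSCA and 0.0948 CPM in control, while most glycolysis enzymes lie above 100 CPM with both points nearly on top of each other.

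Among the subunits and regulators of HIF, none of 6 met the rule. HIF1A, the alpha subunit found in most cells, had 1517 reads in the lncPSCA library and 882 in the control library, or 64.5 and 41.8 CPM. Its fold was 1.54 (1.42 to 1.68), the highest of the group and short of the rule. HIF1A-AS1, a non-coding gene that shares 117 exon bases with HIF1A on the other strand (GENCODE release 29), had 287 and 134 reads, a fold of 1.92 (1.56 to 2.38). Whether strand was used in counting is not given in the sources used here, so reads over such overlaps cannot be assigned to a strand. An exon overlap on the opposite strand was present in 19 members. EPAS1, which encodes the alpha subunit HIF-2 alpha, had only 38 and 31 reads. Per kilobase of the longest annotated transcript, HIF1A stood at 16.3 and 10.6 CPM and EPAS1 at 0.313 and 0.284 CPM, so HIF1A made up 98.1% and 97.4% of the summed level of these alpha subunits.

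The genes that restrain HIF had folds between 0.710 and 1.01. EGLN3, the hydroxylase that is itself strongly induced by HIF, had 1001 reads in the lncPSCA library and 1266 in the control library. Its level was 42.6 CPM, against 60.0 CPM in control, a fold of 0.710 (0.652 to 0.772). VHL, the substrate receptor of the ubiquitin ligase, had 63.8 and 76.6 CPM (0.833-fold, 0.776 to 0.894). EGLN1, the main oxygen sensor of HIF-1 alpha, had 34.2 and 38.8 CPM (0.882-fold, 0.799 to 0.973). EGLN2 had 92 and 82 reads, a fold of 1.01 (0.740 to 1.37). Its level is uncertain, since 2012 of its exon bases also belong to the readthrough gene RAB4B-EGLN2, which was listed at 0 reads in both libraries. EGLN1, EGLN3 and VHL thus lay below 1 and HIF1A above it, with differences inside the 2-fold limit and no replicate to judge them by.

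Among the HIF-specific targets, CA9 was the only one of 10 measured to meet the rule (10%, beside 3.02% of all measured genes). CA9 (ENSG00000107159) encodes carbonic anhydrase IX, a membrane enzyme that helps hypoxic cells export acid and is used as a tissue marker of HIF activity. It had 141 reads in the lncPSCA library and 2 in the control library, or 5.997 and 0.0948 CPM. The ratio was 63.3 (17.2 to 528), and its width comes from the 2 control reads. On the pseudocount scale its log2 ratio of 5.44 ranked 19 from the top among 15440 measured genes. CA9 reached the mean of 1 CPM only through the lncPSCA library. Its large ratio and its rank thus follow in part from that minimum and are given as description only. The gene ARHGEF39, which shares 643 exon bases with CA9 on the opposite strand, had 757 and 694 reads and a fold of 0.979 (0.882 to 1.09). No gain like that of CA9 was seen in the counts of this neighbour. CA12, the related membrane enzyme carbonic anhydrase XII, had 511 and 439 reads, with a fold of 1.04 (0.918 to 1.19). Per kilobase, CA9 and CA12 stood at 3.71 and 3.39 CPM in the lncPSCA library, and at 0.0586 and 3.24 CPM in the control library. CA9 was thus 52.2% of the summed level of both enzymes in lncPSCA and 1.77% in control.

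VEGFA, the main growth factor for blood vessels, came next by ratio. It had 4393 reads in the lncPSCA library and 2197 in the control library, or 187 and 104 CPM. Its fold of 1.79 (1.70 to 1.89) fell short of 2, although the counting interval was narrow. An annotated antisense gene that shares 188 exon bases with VEGFA, ENSG00000272114, had 375 and 210 reads. P4HA2, a hydroxylase that stabilises collagen, had 905 and 566 reads, a fold of 1.43 (1.29 to 1.60). The paralog P4HA1 had 1798 and 1579 reads, a fold of 1.02 (0.955 to 1.09). BNIP3L, a mitophagy receptor also known as NIX, had 722 and 460 reads, a fold of 1.41 (1.25 to 1.59). KDM3A, a histone demethylase, had 93.0 and 81.5 CPM (1.14-fold, 1.07 to 1.22), and ANKRD37, an ankyrin repeat protein, 220 and 184 reads (1.07-fold, 0.878 to 1.31). ANKRD37 shares 909 exon bases with UFSP2 on the opposite strand, which had 690 and 674 reads, so its counts are uncertain. P4HA2 shares 548 with P4HA2-AS1 (92 and 63 reads) and BNIP3L 330 with PNMA2 (727 and 508 reads), also on the opposite strand.

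ADM and NDRG1, both classical hypoxia-induced genes, had ratios below 1. ADM, which encodes the vasodilator peptide adrenomedullin, had 583 reads in the lncPSCA library and 678 in the control library. Its fold was 0.772 (0.690 to 0.863). NDRG1, a stress-responsive gene linked to growth arrest, had 220 and 229 reads, and its interval reached past 1 (0.862-fold, 0.713 to 1.04). Over the 10 measured targets, 8 log2 ratios were above 0 and 2 below (KDM3A and CA12 also lay below 0 when centred along transcript length), and the values ran from -0.37 (ADM) to 5.44 (CA9). Of the 8 above 0, CA12, P4HA1 and ANKRD37 had counting intervals of the fold that included 1. Over all 15440 measured genes, 7434 lay above 0. In both counts the members are not replicates. Their median was 0.15, and 0.10 without CA9. Summed over all 11, the HIF-specific targets took 0.0508% of the counts of the lncPSCA library and 0.0374% of those of the control library, and VEGFA made up the largest part in both. These shares are unscaled, and the summed levels after scaling were 497 and 382 CPM, a ratio of 1.30 (1.27 to 1.34).

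**Figure D2:**
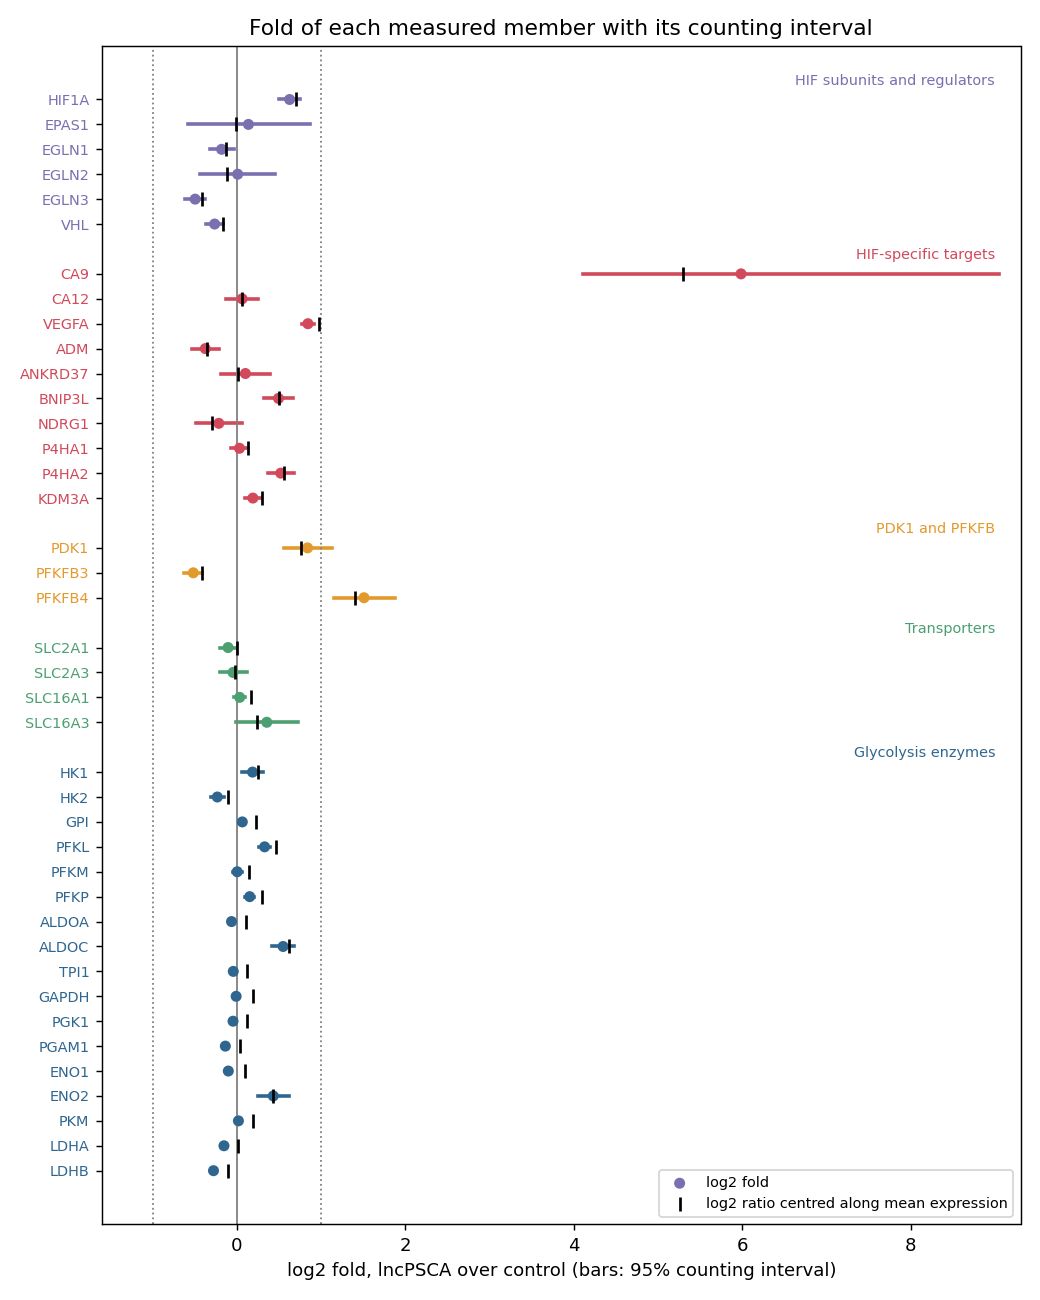
Log2 fold of lncPSCA over control for the 40 measured members (points), with 95% counting intervals (bars) and, as black ticks, the log2 ratio with pseudocount after centring along mean expression; dotted lines mark 2-fold. Only CA9 and PFKFB4 lie past 2-fold with intervals beyond 1.5-fold, and for CA9 the tick lies left of the point mainly because the pseudocount lowers the ratio of a gene with 2 control reads.

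The genes that steer glucose carbon differed among themselves. PFKFB4 (ENSG00000114268) encodes an enzyme that both makes and breaks down fructose 2,6-bisphosphate, the strongest activator of phosphofructokinase, and is a HIF target. It had 276 reads in the lncPSCA library and 87 in the control library, or 11.7 and 4.12 CPM, and was 2.85-fold higher (2.23 to 3.67). UCN2, which shares 289 exon bases with PFKFB4 on the same strand, had 0 and 2 reads. The paralog PFKFB3, the form with the highest ratio of kinase to phosphatase activity, had 1330 and 1708 reads, a fold of 0.699 (0.650 to 0.751). Of the reads of both paralogs, PFKFB4 held 17.2% (15.4 to 19.1, exact binomial interval) in lncPSCA and 4.85% (3.90 to 5.94) in control. The sum of both nevertheless was 1606 reads in lncPSCA and 1795 in control, since PFKFB3 supplied most of it. PDK1, which blocks entry of pyruvate into the mitochondrial citric acid cycle, had 313 and 157 reads. Its fold was 1.79 (1.47 to 2.18), short of the rule.

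None of the 4 transporters met the rule, with folds between 0.930 and 1.28. SLC2A1, the glucose carrier GLUT1 and a standard HIF target, had 1831 reads in the lncPSCA library and 1766 in the control library, a fold of 0.930 (0.871 to 0.994). SLC2A3, the carrier GLUT3, had 659 and 610 reads (0.970-fold, 0.867 to 1.08). SLC16A1, the lactate carrier MCT1, had 171 and 167 CPM (1.02-fold, 0.978 to 1.07). SLC16A3, the hypoxia-induced lactate exporter MCT4, had 154 and 108 reads, and its interval included 1 (1.28-fold, 0.994 to 1.65). SLC16A3 shares 482 exon bases with CSNK1D on the opposite strand, which had 4278 and 3896 reads, so its level is uncertain. MCT1 made up 96.7% and MCT4 3.35% of their summed level per kilobase in lncPSCA, and 97.3% and 2.70% in control.

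None of the 17 glycolysis enzymes met the rule, and their folds ran from 0.825 (LDHB) to 1.46 (ALDOC). Together they took 2.08% of the counts of the lncPSCA library (478636 reads) and 2.07% of those of the control library (446946 reads). These shares are unscaled. After scaling of library size, their summed levels were 20359 and 21183 CPM, a ratio of 0.961 (0.957 to 0.965). The median log2 ratio was -0.01, with 8 members above 0 and 9 below, and 12 lay within 0.2 of 0. This sign turned under total-count and DESeq2 scaling and under centring along mean expression or length, where the median lay between 0.01 and 0.14. GAPDH, the glyceraldehyde phosphate dehydrogenase often used for normalisation, had 138103 and 124642 reads. That is 5874 and 5907 CPM, a fold of 0.994 (0.987 to 1.002), and it ranked 3 among all genes in each library. A gene annotated antisense to GAPDH with 422 shared exon bases, ENSG00000269968, carried 71196 and 63594 reads and had a fold of 1.005 (0.994 to 1.02), so the split of reads at this locus is uncertain while both counts had the same ratio.

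Along the pathway, the glucose-trapping step was served by HK1, with 48.1 and 42.3 CPM (1.14-fold, 1.04 to 1.24), and by the HIF target HK2, with 124 and 146 CPM (0.852-fold, 0.809 to 0.896). HK1 held 27.9% of hexokinase reads in lncPSCA (26.5 to 29.3) and 22.5% in control (21.2 to 23.8), with intervals that cover counting error only. The isomerase GPI had 803 and 767 CPM. Of the phosphofructokinases, which catalyse the committed step, PFKL had 215 and 171 CPM (1.26-fold, 1.20 to 1.31), PFKP 280 and 252 CPM (1.11-fold, 1.07 to 1.15), and PFKM 237 and 237 CPM (1.003-fold, 0.965 to 1.04). ALDOA, the main aldolase, had 1485 and 1552 CPM (0.957-fold, 0.943 to 0.972). ALDOC, the aldolase of brain and a HIF target, had 1314 and 806 reads. Its fold of 1.46 (1.34 to 1.60) led the enzymes. An antisense gene with 296 shared exon bases, ENSG00000265168, had 497 and 292 reads and a fold of 1.53 (1.32 to 1.77).

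In the later steps of the pathway, folds ran from 0.825 (LDHB) to 1.35 (ENO2). Triose phosphate isomerase TPI1 had 672 and 692 CPM, and the ATP-forming phosphoglycerate kinase PGK1 had 662 and 683 CPM, with folds of 0.971 (0.9495 to 0.993) and 0.969 (0.947 to 0.991). The mutase PGAM1 had 1177 and 1293 CPM (0.910-fold, 0.895 to 0.925). ENO1, the main enolase, had 4767 and 5113 CPM (0.932-fold, 0.924 to 0.940). ENO2, the enolase of neurons, had 612 and 407 reads, with a fold of 1.35 (1.19 to 1.53). PKM, the pyruvate kinase of tumour cells, had 1683 and 1662 CPM (1.01-fold, 0.999 to 1.03). LDHA, which makes lactate and is a textbook HIF target, had 1174 and 1305 CPM (0.900-fold, 0.885 to 0.915). LDHB, which favours the reverse reaction, had 1075 and 1303 CPM (0.825-fold, 0.811 to 0.840). LDHA held 52.2% of the reads of both dehydrogenases in lncPSCA (51.8 to 52.6) and 50.0% in control (49.6 to 50.5). Several of these enzymes have processed pseudogenes. The 64 named pseudogenes of GAPDH held 395 and 394 reads, the 4 of TPI1 198 and 182, and the 6 of LDHA 129 and 117, at most 1.25% of their parent gene.

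**Figure D3:**
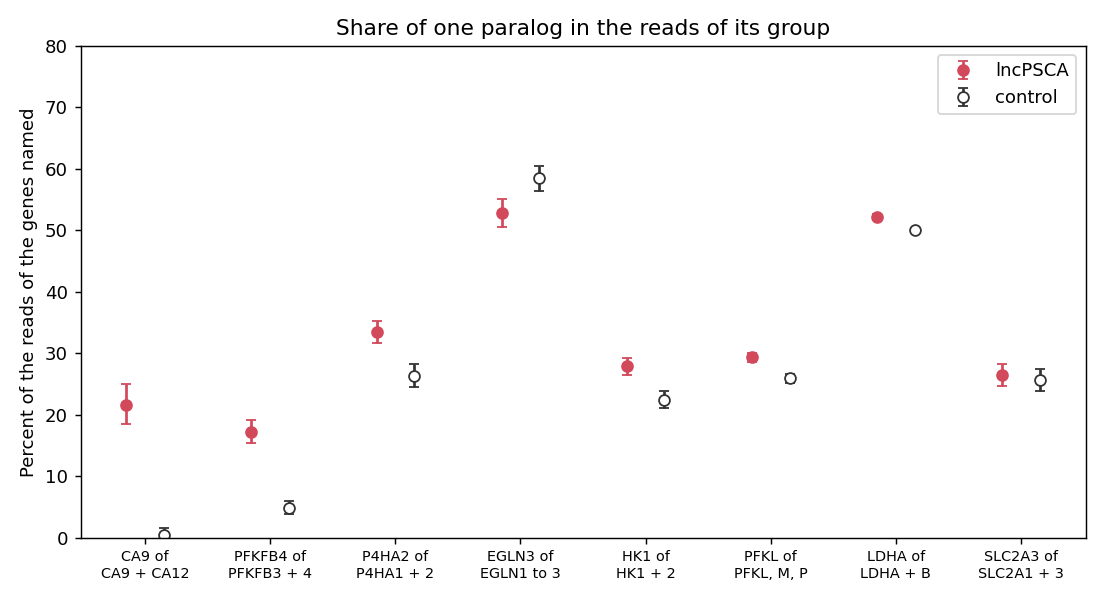
Share of the reads of a paralog group held by 1 of its genes, in percent, for lncPSCA (filled, left) and control (open, right), with exact 95% binomial intervals. CA9 and PFKFB4 held 21.6% and 17.2% of their groups in lncPSCA, against 0.454% and 4.85% in control.

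Set against each other, the HIF-specific targets had a median log2 ratio of 0.15 and the glycolysis enzymes one of -0.01, a difference of 0.15. The counting intervals of the middle targets, KDM3A and ANKRD37, had a mean half-width of 0.19 in log2. The difference was smaller than this mean, but the 2 intervals were unequal, with folds of 1.07 to 1.22 for KDM3A and 0.878 to 1.31 for ANKRD37. The mean half-width is not a counting error of the median, which was not calculated. The lists overlapped: ADM and NDRG1 lay below 17 and 15 of the 17 glycolysis enzymes, while ALDOC lay above 8 and ENO2 above 6 of the 10 targets. Members also differed in level, which moves with the ratio in these libraries. The median log2 ratio of all measured genes was 0.15 in the bottom quartile by mean CPM and -0.13 in the top quartile, and 14 of 17 glycolysis enzymes but 3 of 10 HIF-specific targets lay in that top quartile. After centring along mean expression the medians were 0.22 for the targets and 0.14 for the enzymes, a difference of 0.08, and 7 enzymes with a log2 ratio below 0, including GAPDH, ENO1 and LDHA, had one above 0. After centring along transcript length the difference was 0.11. CA9 and PFKFB4 met the rule under both centrings, with log2 ratios of 5.30 and 1.40 along mean expression.

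**Figure D4:**
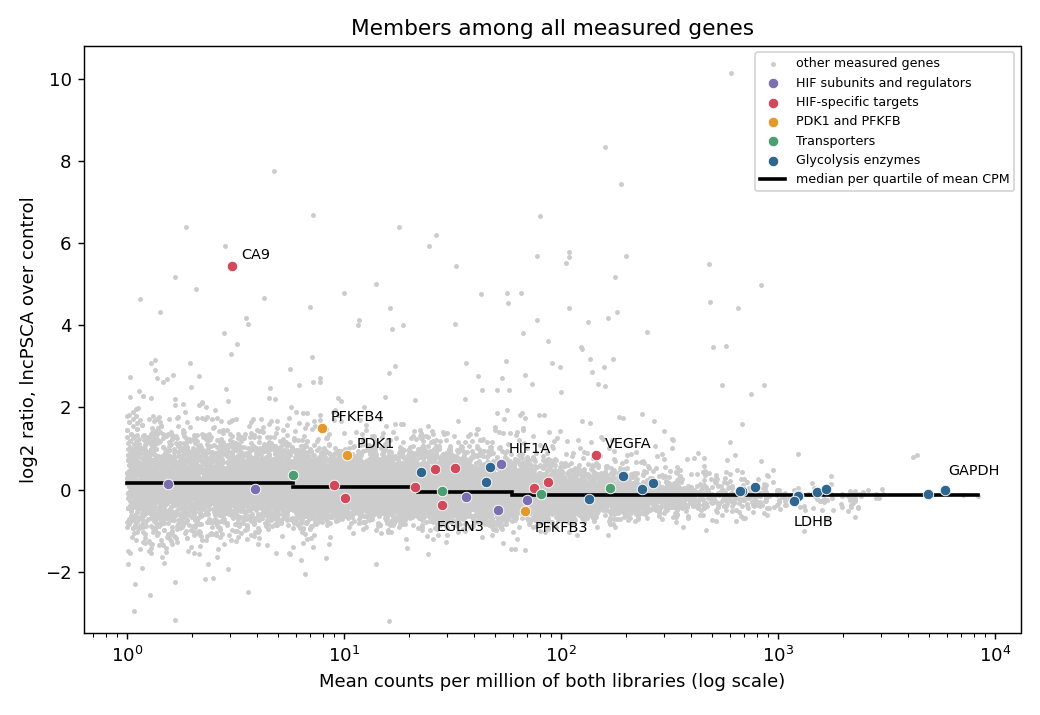
Log2 ratio of lncPSCA over control against mean CPM (log axis) for 15440 measured genes in grey, with the 40 measured members coloured by role and black lines at the median of each quartile of mean CPM. The quartile medians decline from 0.15 to -0.13, and 14 of 17 glycolysis enzymes lie in the top quartile. The median of the glycolysis enzymes, -0.01, lies above the top-quartile line.

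A further list of hypoxia-induced genes was set beside the members. Of its 41 measured genes, 4 were higher and 1 was lower. That is 9.76% and 2.44% of the list, beside 3.02% and 0.596% of all measured genes, and the median log2 ratio was 0.16, beside -0.02. DDIT4, an mTORC1 inhibitor that is induced by HIF and by the integrated stress response, had 1469 and 253 CPM and was 5.81-fold higher (5.65 to 5.98). STC1 and STC2 encode the stanniocalcins, secreted glycoproteins. STC1 had 81 and 21 reads (3.46-fold, 2.12 to 5.89), and STC2 had 168 and 72.9 CPM (2.31-fold, 2.17 to 2.45). The control level of STC1 was 0.995 CPM, so STC1 reached the mean of 1 CPM only through the lncPSCA library. SPAG4, a protein of the nuclear envelope, had 69 and 25 reads (2.48-fold, 1.55 to 4.09). HMOX1, haem oxygenase 1, a target of both HIF and NRF2, had 30.5 CPM in lncPSCA and 65.5 CPM in control and was lower (0.466-fold, 0.425 to 0.510). Of 14 measured further subunits and cofactors of HIF, none met the rule, and their median was 0.08. The asparaginyl hydroxylase HIF1AN had 251 and 279 CPM, and the coactivator CREBBP 211 and 175 CPM. CITED2, a HIF-induced inhibitor of HIF that was picked after its values were seen, had 1745 and 817 reads, a fold of 1.92 (1.76 to 2.09), the highest ratio of that list.

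**Figure D5:**
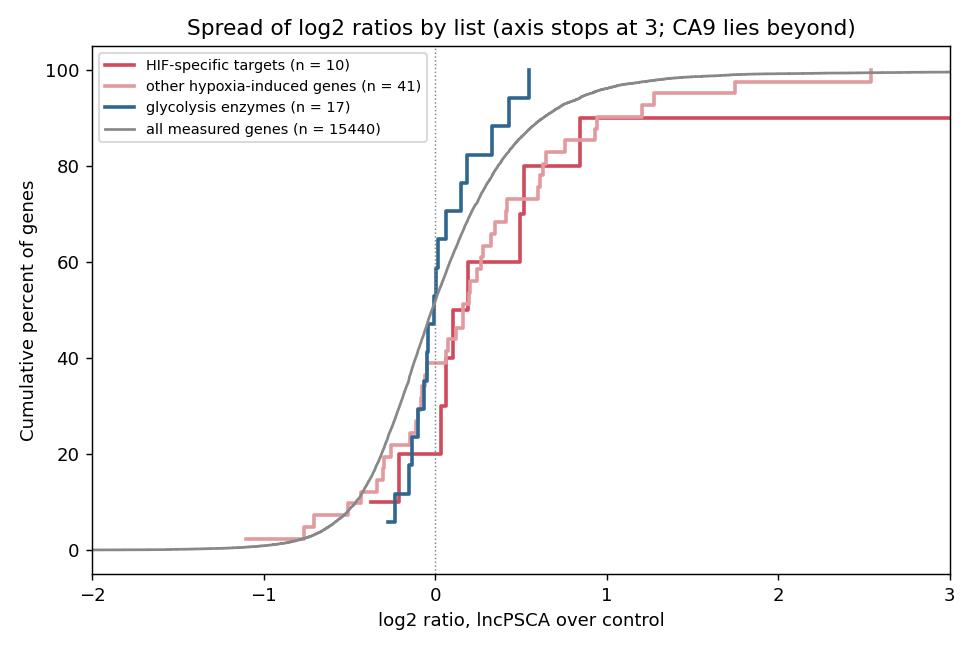
Cumulative percent of genes against log2 ratio of lncPSCA over control for 10 HIF-specific targets, 41 other hypoxia-induced genes, 17 glycolysis enzymes and 15440 measured genes. The glycolysis curve is the steepest, from -0.28 to 0.55. Both hypoxia lists reach further on both sides, from -0.37 to 5.44 for the targets and from -1.10 to 2.54 for the other genes. All measured genes spread the widest, from -3.19 to 10.1, beyond the axis.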

How the data were processed

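RNA was measured in 2 libraries, 1 per group. The authors deposited raw read counts per Ensembl gene. The submitters' processing notes name TopHat2, HTSeq and the build hg19. Versions, annotation release, strand setting and kit were not given in the sources used here. Symbols were matched for 52181 of 63677 identifiers. Library sizes were scaled by TMM (edgeR 4.0.16; factors 1.02 for lncPSCA and 0.979 for control). Log2 ratios used a pseudocount of 1 scaled to library size; folds are CPM ratios without it, with Clopper-Pearson 95% counting intervals, which cover counting error only and may be too narrow even for that, as the labels mention no molecular identifiers that would tell reads of 1 molecule apart. No test was possible with 1 library per group. Lengths (the longest transcript) and exon overlaps came from GENCODE 29, matched by identifier, on a newer build. Centring used lowess (statsmodels 0.14.6, fraction 0.3). Alternatives were 3 scalings (DESeq2 1.42.0, total counts, upper quartile), 2 CPM minimums, 2 pseudocounts, 2 centrings, added pseudogene reads and a 1.5-fold rule. The calculation was checked on simulated counts that varied by counting error only. That check therefore says nothing about the spread between replicate libraries. All members are described; of each further list, genes that met the rule are named, or else the 2 most abundant, with a few more, such as COL3A1 and EPCAM, picked after their values were seen; some markers are not reported here. The members, lists and rule were chosen with earlier results of these data known.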

Additional observations from a re-analysis of the deposited data

How the results depend on the processing

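Over all alternatives no member was lower, and the difference of medians between HIF-specific targets and glycolysis enzymes stayed above 0 (0.08 to 0.20). The other scalings shift nearly all log2 ratios by the same amount. They therefore could not change this difference (0.154 under each) and do not test it. The other pseudocounts hardly moved it (0.1542 and 0.1528). Centring lowered it to 0.08 along mean expression and to 0.11 along length. A minimum of 5 CPM gave 0.11, and no minimum gave 0.20. The number of higher members was 2 except with a minimum of 5 CPM, which leaves out CA9 and gave 1 (PFKFB4), and under the 1.5-fold rule with an interval beyond 1, which gave 5. The median of the glycolysis enzymes, -0.01, was 0.0058 with DESeq2 size factors, 0.0531 with total counts, -0.0331 with upper-quartile scaling, 0.1436 when centred along mean expression and 0.0568 when centred along length. Over all measured genes, 467 were higher and 92 lower; without a CPM minimum 150 were lower, with a minimum of 5 CPM 284 were higher and 46 lower, and under the 1.5-fold rule 1624 and 835. Fewer or more genes enter under another minimum; otherwise the cause was not tested. Centring along mean expression turned the sign of 10 of 40 members, all with log2 ratios under 0.2 in size. No paired analysis was possible because each group has 1 library, and for the same reason no library could be left out. Depth limits CA9, EPAS1, BNIP3 and EGLN2, which had at most 141 reads in each library.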

Other observations

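Genes that neighbour glycolysis in metabolism mostly had log2 ratios below 0, as did 8006 of all 15440 measured genes. Of 9 measured pentose phosphate genes none met the rule, 7 were below 0 and the median was -0.20 (-0.07 when centred along mean expression). The transketolase TKT had 469 CPM in lncPSCA and 529 CPM in control, and the dehydrogenase PGD had 238 and 237 CPM. Of 13 measured genes of pyruvate entry into mitochondria, 10 were below 0 and the median was -0.18 (-0.09 when centred). PCK2, the mitochondrial PEP carboxykinase that links pyruvate metabolism back to glycolytic intermediates, alone met the rule, with 240 and 104 CPM (2.31-fold, 2.20 to 2.43). This single gene is 7.69% of its list, beside 3.02% of all measured genes. Of 19 measured further glycolysis and glucose transport genes, the glucose carrier SLC2A12 alone met the rule. That is 5.26% of the list, beside 3.02% of all measured genes. SLC2A12 had 42 and 11 reads, or 1.79 and 0.521 CPM (3.43-fold, 1.73 to 7.38). It reached the mean of 1 CPM only through the lncPSCA library. The median of the list was -0.01.

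None of the measured relatives of CA9 and VEGFA met the rule. Of 13 other carbonic anhydrases 5 were measured, 4 with log2 ratios above 0, and the median was 0.44. CA11 had 31.6 CPM in lncPSCA and 23.3 CPM in control, and CA2 had 20.5 and 29.4 CPM. The other three were picked after their values were seen. CA14 had 409 and 204 reads (1.80-fold, 1.52 to 2.14), CA5B had 81 and 42 (1.73-fold, 1.18 to 2.58), and CA13 had 312 and 260 (1.08-fold, 0.911 to 1.27). Of 9 other VEGF ligands and receptors 5 were measured, 3 with log2 ratios above 0, and the median was 0.11. The receptor NRP1 had 30.1 and 39.4 CPM, and the ligand VEGFB 33.8 and 31.2 CPM.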
